A study of Mus musculus with 8 samples.

Results

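Tumor-associated macrophages (TAMs) from wild-type (WT) mice were compared with and without treatment with αMARCO, an antibody against the scavenger receptor MARCO. The comparison was set by the sample labels alone and holds 4 of the 8 RNA-seq libraries of the series, namely 2 from αMARCO-treated and 2 from control mice. The other 4 libraries are the same pair of treatments in Unc93b1 3d/3d mice, which lack endosomal Toll-like receptor (TLR) signaling, although the genotype entry of control replicate 2 reads 3d/4d where its title has 3d/3d. TAMs came from EO771 tumors on day 21 after implantation, where CD45+ cells were enriched on beads and live cells positive for CD11b and F4/80 and negative for Gr-1 were then sorted. EO771 is a mouse breast cancer line, placed here in the mammary fat pad of female C57BL/6J mice of 8 to 14 weeks of age.

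The αMARCO groups received 100 µg of clone ED31, a rat IgG1, intravenously on days 3, 6, 9 and 12. The sources differ on the control, which the labels call untreated, the library names call PBS and the treatment protocol gives as a rat IgG1 isotype antibody (clone TNP6A7), so that an effect of binding MARCO and an effect of receiving antibody cannot be told apart here. Each control sample was pooled from 3 mice, and the pooling of the αMARCO samples is not given in the sources used here. The antibody was given to whole animals that carried a tumor, and the sorted cells are those found in the gate on day 21.

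MARCO is a class A scavenger receptor that macrophages use to take up bacteria, particles and modified lipoproteins. TAMs clear dying cells, present antigen, secrete cytokines and chemokines, handle lipid and remodel matrix, and they shift between inflammatory and tissue-repair programs with the signals they receive. NF-kB and the interferon-stimulated gene factor ISGF3 are the best known transcription factors downstream of TLRs and of the type I interferon receptor. NF-kB elements were searched as GGG, any 2 bases, TT, any base and CC, and the interferon-stimulated response element (ISRE) bound by ISGF3 as TTTC, any 2 bases and TTTC, each on both strands.

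Promoters of 5 genes from the NF-kB and type I interferon groups described below are shown because they carry these same letters while their genes moved in opposite directions. Nfkbia fell while Nfkbid and Tnip3 rose, and Stat2 rose while Bst2 fell. Each stretch runs from 250 bases before to 50 bases after the start of the gene, 5′ to 3′ on the strand of the gene, from RefSeq on build GRCm38.p6, with the letters that match on either strand in capitals. The first is on chr12:55492598-55492897 (minus strand), the second on chr7:30422156-30422455 (plus), the third on chr6:65590148-65590447 (plus), the fourth on chr10:128270248-128270547 (plus) and the last on chr8:71537423-71537722 (minus), where 2 matches overlap.
Nfkbia: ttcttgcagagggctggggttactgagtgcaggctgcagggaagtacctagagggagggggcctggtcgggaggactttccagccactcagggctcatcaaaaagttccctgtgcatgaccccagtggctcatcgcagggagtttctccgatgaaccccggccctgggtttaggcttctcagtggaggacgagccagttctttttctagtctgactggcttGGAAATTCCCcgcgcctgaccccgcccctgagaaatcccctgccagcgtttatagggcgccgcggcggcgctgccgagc
Nfkbid: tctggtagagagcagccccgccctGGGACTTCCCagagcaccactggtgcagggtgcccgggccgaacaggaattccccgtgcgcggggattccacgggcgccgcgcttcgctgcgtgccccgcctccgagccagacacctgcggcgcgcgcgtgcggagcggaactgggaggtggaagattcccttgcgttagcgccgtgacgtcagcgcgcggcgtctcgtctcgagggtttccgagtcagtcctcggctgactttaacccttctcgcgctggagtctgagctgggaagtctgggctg
Tnip3: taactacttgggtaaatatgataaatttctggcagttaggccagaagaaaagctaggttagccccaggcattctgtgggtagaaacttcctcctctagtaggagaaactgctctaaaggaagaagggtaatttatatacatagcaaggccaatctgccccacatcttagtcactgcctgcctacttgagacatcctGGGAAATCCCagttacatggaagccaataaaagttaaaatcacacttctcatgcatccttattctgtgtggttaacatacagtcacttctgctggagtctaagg
Stat2: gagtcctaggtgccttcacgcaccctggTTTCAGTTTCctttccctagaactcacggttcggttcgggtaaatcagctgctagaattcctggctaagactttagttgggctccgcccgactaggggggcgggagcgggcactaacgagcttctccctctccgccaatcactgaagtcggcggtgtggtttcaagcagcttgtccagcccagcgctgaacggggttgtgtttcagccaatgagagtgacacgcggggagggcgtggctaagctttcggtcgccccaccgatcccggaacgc
Bst2: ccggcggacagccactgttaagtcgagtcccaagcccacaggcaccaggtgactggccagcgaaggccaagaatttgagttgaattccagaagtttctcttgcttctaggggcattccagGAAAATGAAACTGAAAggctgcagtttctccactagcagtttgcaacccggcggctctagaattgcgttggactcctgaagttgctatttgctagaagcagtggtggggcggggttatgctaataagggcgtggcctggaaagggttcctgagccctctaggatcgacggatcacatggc
The NF-kB letters were found in a promoter of 47.4% of the 19 NF-kB group genes that RefSeq held. The share was 5.48% of all 27025 genes with a promoter of this length and 6.43% of the tested genes among them. The ISRE letters were found for 55.6% of 27 type I interferon group genes, against 3.99% of all genes and 4.02% of tested genes. A match of letters is a description of the sequence and shows neither binding nor use of the site.

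The libraries held 18205049 and 19021112 assigned reads in the controls and 20368886 and 26411936 after αMARCO. At these totals 3 counts stood at 0.114 to 0.165 CPM (counts scaled to a library of 1000000, here by raw totals). Of 25098 listed genes, 15630 passed the low-count filter and were tested with the edgeR quasi-likelihood test, with p-values adjusted over all of them (Benjamini-Hochberg). A call required an adjusted p no higher than 0.05 together with a log2 fold change (αMARCO minus control) of 0.5 or more in either direction, a 1.41-fold difference. In all, 3236 genes were called, 20.7% of those tested, with 1393 higher (8.91%) and 1843 lower (11.8%) after αMARCO. The 2 groups did not overlap for any called gene, nor for 11084 of the 15630 tested genes. The median log2 fold change was −0.01. Below, CPM values are given as both controls against both αMARCO libraries, in the order of replicates 1 and 2. The value after ± is a standard error derived from the F statistic of the test.

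Libraries of one group were closer to each other than to the other group, at distances of 65.3 between the controls, 49.25 between the αMARCO libraries and 93.12 to 107 between groups, on log2 CPM over all tested genes. The count of calls rested in part on single libraries, and was 1940 without αMARCO replicate 1 and 3931 without control replicate 2. It also rested on the spread of these 4 libraries, since 164 genes were called when all 8 libraries shared 1 estimate of the spread. Of the 209 called genes among the 320 named by the rule given in the methods, 44 were called under every alternative fit. An alternative fit here keeps the same thresholds and counts where the gene was tested, so other fold thresholds are not among them. Replicate numbers name separate libraries, and nothing in the sources pairs them across groups.

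Differences ran with gene length and gene class. Among protein-coding genes, the median log2 fold change was −0.30 in the shortest of 4 classes of annotated length (69 to 2692 bases), −0.11 and 0.03 in the middle classes and 0.15 in the longest. In the shortest class 716 genes were called lower and 96 higher, and in the longest class 213 lower and 356 higher. Antisense genes had a median of 0.68, long intergenic noncoding RNAs 0.41 and processed pseudogenes −0.42. Noncoding classes took 1.15% and 1.24% of control counts against 1.91% and 1.71% after αMARCO. The strand setting of the counting is not given in the sources used here, so reads of an antisense gene and of its partner may not be separated. A fit with a smooth offset for gene length, chosen after seeing the data, called 2908 genes, and the part of length in the results below was otherwise not tested.

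**Figure D1:**
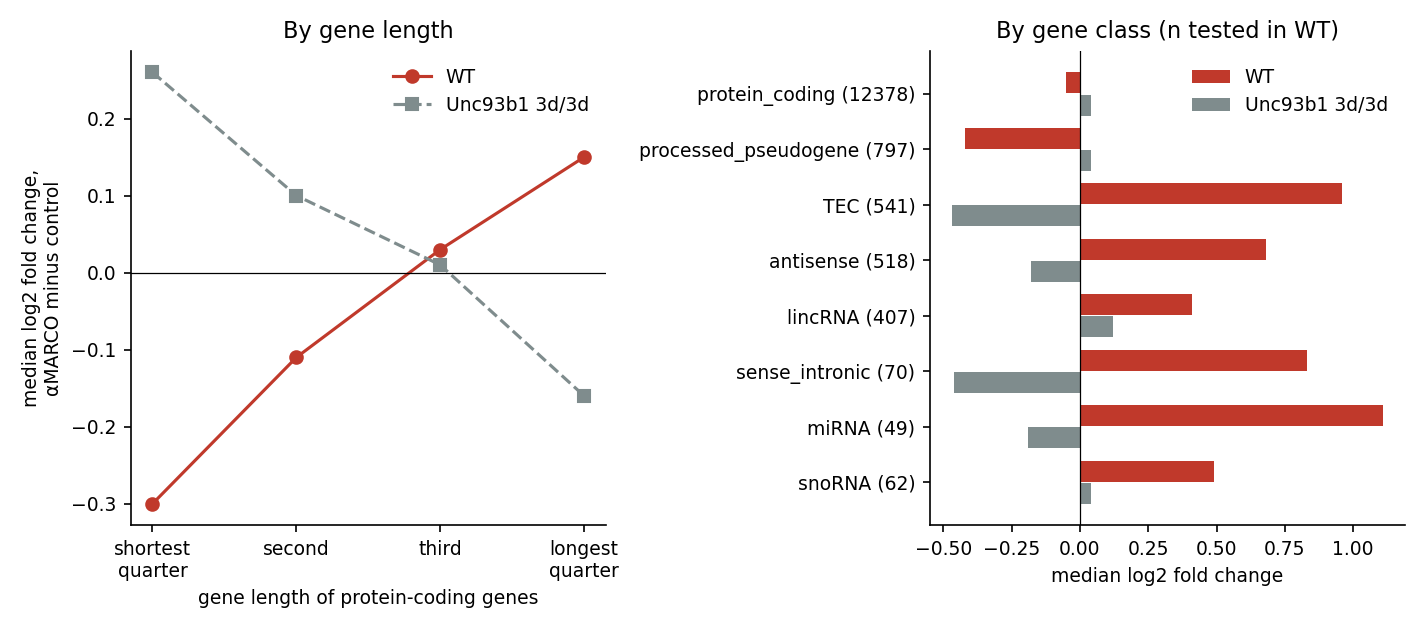
Median log2 fold change (αMARCO minus control) of protein-coding genes by 4 classes of gene length (left) and of all tested genes by annotated gene class, with the number tested in WT (right), in WT (red) and Unc93b1 3d/3d TAMs (gray). In WT TAMs the median ran from −0.30 in the shortest class to 0.15 in the longest, and in Unc93b1 3d/3d TAMs from 0.26 to −0.16. The 2 Unc93b1 3d/3d αMARCO libraries differed for short genes, with ribosomal sums of 29030 and 58730 CPM, so no direction is read for that genotype.

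The macrophage identity of the sorted cells was checked on 18 marker genes, whose summed level was 20320 and 21270 CPM in controls and 16570 and 17770 CPM after αMARCO. Csf1r, the receptor for the macrophage growth factor CSF-1, stood at 1019 and 898 against 1035 and 1076 CPM, and was not called. Adgre1, which encodes the F4/80 antigen used in the sort, was lower, at 569 and 715 against 443 and 437 CPM (log2 fold change −0.54 ± 0.11, adjusted p = 0.0054). Its fold change fell short of the threshold without control replicate 2, at −0.37. Ly6g, part of the Gr-1 antigen sorted against, was at most 0.836 CPM in any library and was not tested. Marco itself was at 0.209 and 0.936 CPM in controls and 0.485 and 0.385 CPM after αMARCO, too low to test.

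Markers of other cells moved with the treatment. All 20 tested T cell markers fell, with summed levels of 200.5 and 223 CPM in controls against 21.7 and 32.6 CPM after αMARCO. Of 11 tested NK cell markers 7 fell (185.3 and 164.9 against 50.8 and 60.8 CPM), and of 11 mature dendritic cell markers 8 fell (1305 and 811 against 398 and 475 CPM). Of type 1 dendritic cell markers 4 of 11 fell (917 and 951 against 714 and 730.3 CPM), of type 2 and general dendritic cell markers 3 of 10, and of fibroblast markers 4 of 11 with 1 higher (227 and 190 against 83.8 and 50.6 CPM). Of 6 tested neutrophil markers 3 fell, while the summed level of that list was higher, at 340.5 and 319.8 against 377 and 379 CPM. In the remaining lists, 2 of 4 tested epithelial and tumor cell, 1 of 7 B cell and 1 of 7 endothelial markers fell, and no plasmacytoid dendritic, mast or erythroid marker was called. In bulk libraries, fewer cells of a type and less RNA per cell cannot be told apart. The part of these cells in any result below was not tested.

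**Figure D2:**
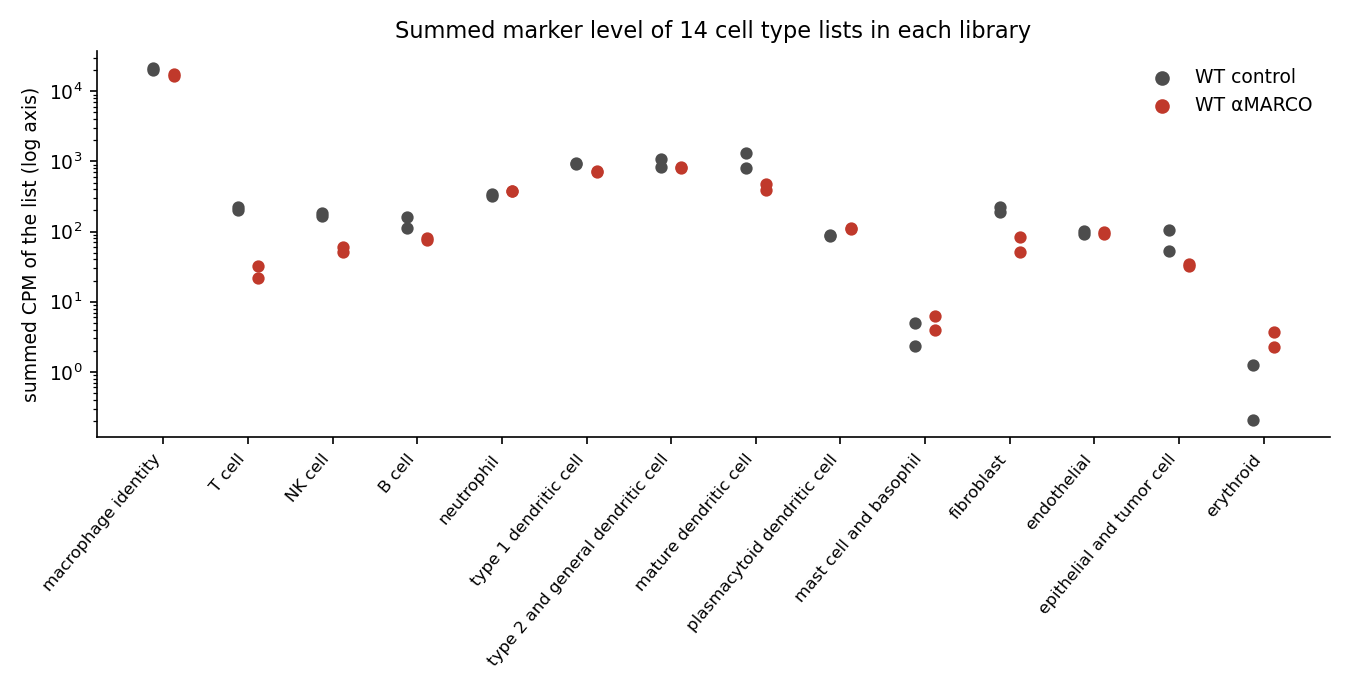
Summed CPM (log axis) of 14 lists of cell type markers in each WT library, 2 control (gray) and 2 αMARCO (red). The T cell list fell from 200.5 and 223 CPM to 21.7 and 32.6 CPM, while the macrophage identity list was at 16570 CPM or more in every library.

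Across 43 lists of macrophage functions, the share of members called differed widely from the background of 8.91% higher and 11.8% lower. Mitochondrially encoded respiratory subunits, inflammasome genes, immediate early genes and chemokine receptors held the highest shares of members called higher. Cell cycle genes, nuclear respiratory subunits, ribosomal proteins, nonclassical monocyte genes and, again, chemokine receptors held the highest shares called lower. Lists are described by their counts and medians only.

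**Figure D3:**
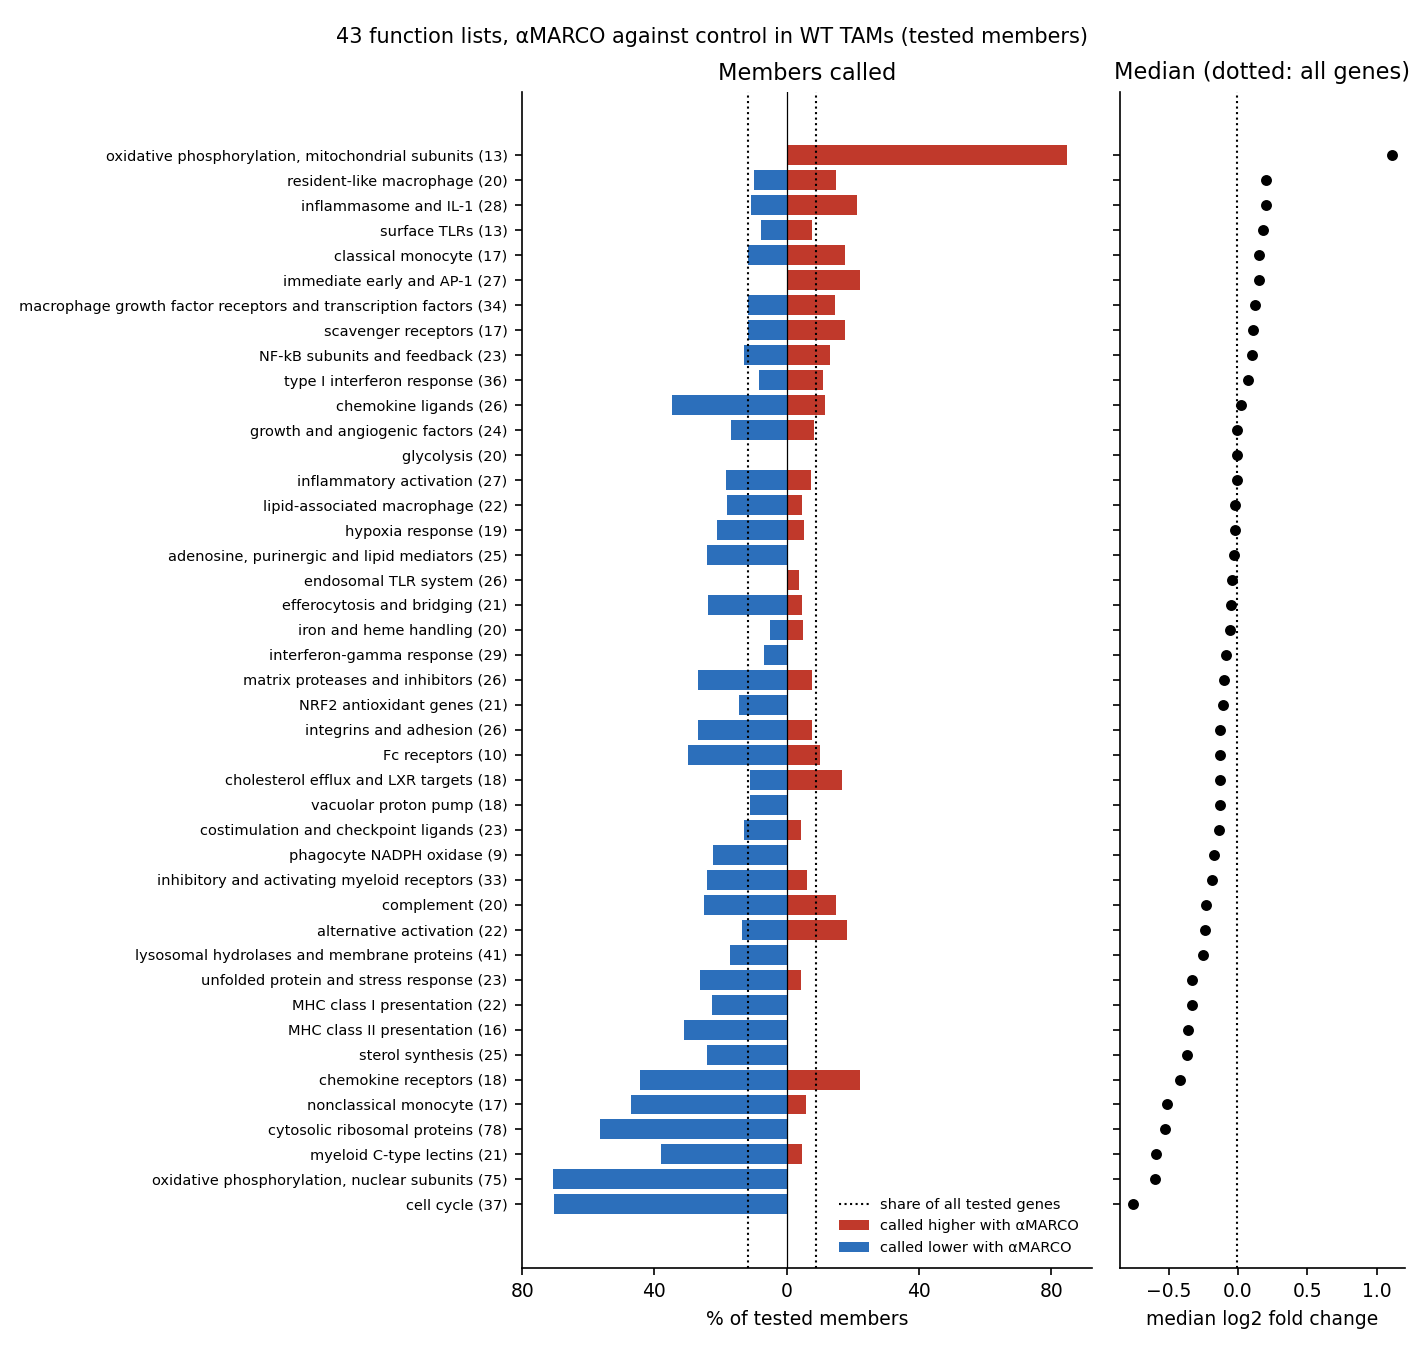
Left, percent of tested members of each of 43 function lists called higher (red, to the right) or lower (blue, to the left) after αMARCO, with dotted lines at the shares of all tested genes, 8.91% and 11.8%. Right, median log2 fold change of each list, from −0.76 for cell cycle genes to 1.11 for mitochondrially encoded subunits, beside −0.01 for all genes (dotted).

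Scavenger and endocytic receptors rose in part. Of 17 tested members, 3 were called higher (17.6%, beside 8.91% of all genes) and 2 lower (11.8%, the same as all genes). The median was 0.11, and the list's summed level was 4845 and 4727 CPM in controls against 6549 and 6383 CPM after αMARCO. Stab1 encodes stabilin-1, a clearance receptor of perivascular and tissue-repair macrophages (ENSMUSG00000042286, chromosome 14, 31139013 to 31168641 on GRCm38, minus strand). It stood at 316 and 352 CPM in the controls and 997 and 898 CPM after αMARCO. The difference was larger than the spread within groups (log2 fold change 1.50 ± 0.10, adjusted p = 4.12e-05), although it narrowly missed the threshold when all 8 libraries were fitted together (adjusted p = 0.0503). Lrp1, a large endocytic receptor for lipoproteins and protease complexes, was at 1100 and 1242 against 2033 and 1954 CPM (log2 fold change 0.77 ± 0.10, adjusted p = 0.000694). Cxcl16, a membrane chemokine that also binds oxidized lipoprotein, rose by 0.50, a difference that fell under the fold threshold without αMARCO replicate 2 (0.44) or control replicate 2 (0.47). Msr1, which encodes the class A receptor closest to MARCO, was at 441 and 449 against 592 and 584 CPM, below the fold threshold at 0.40. Mrc1, which encodes the mannose receptor CD206, overlapped between groups at 1242 and 878 against 1195 and 1097 CPM.

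Genes of resident-like macrophages had a median of 0.20, with 3 of 20 called higher (15%, beside 8.91% of all genes) and 2 lower (10%, beside 11.8%). F13a1, the A chain of coagulation factor XIII, stood at 110 and 77.6 against 210.4 and 184 CPM (log2 fold change 1.07 ± 0.17, adjusted p = 0.00641). Its call was lost without αMARCO replicate 1 (log2 fold change 0.98, adjusted p = 0.0605). Maf, a transcription factor of mature tissue macrophages, stood at 467 and 522 against 763 and 844 CPM (log2 fold change 0.70 ± 0.10, adjusted p = 0.000806). Ccl8, a chemokine of skin and tissue macrophages, fell by 0.87 on the log2 scale, and missed significance without control replicate 1 (adjusted p = 0.0568). Folr2 (15.04 and 15.2 against 15.1 and 14.1 CPM) and Igf1 (7.16 and 10.5 against 7.32 and 10.3 CPM) overlapped between groups.

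Alternative activation genes moved both ways, with 4 of 22 called higher (18.2%, beside 8.91% of all genes) and 3 lower (13.6%, beside 11.8%). Their median was −0.24. The highest log2 fold change of any named gene was that of Retnla (ENSMUSG00000061100, chromosome 16, 48842552 to 48844461, plus strand), which encodes the secreted protein RELMα induced by IL-4. Retnla stood at 6.06 and 5.62 CPM in the controls and 80.4 and 51.7 CPM after αMARCO (log2 fold change 3.49 ± 0.26, adjusted p = 0.000583). The call needed both controls, since the adjusted p was 0.143 without either one, with a log2 fold change of 3.43 to 3.55. Il4ra, the IL-4 receptor chain, rose by 0.54 and Kdm6b, a histone demethylase induced in activated macrophages, by 0.64. The Il4ra call was lost without αMARCO replicate 1 (0.45) or control replicate 2 (0.39). Irf4, a transcription factor of IL-4 responses, fell by 0.89, although not without αMARCO replicate 2 (adjusted p = 0.058), and Cd200r1, an inhibitory receptor, fell by 0.78 and was called under every alternative fit. Arg1, the arginase of this program, was high in 1 control only, at 123 and 19.4 against 28.02 and 29.8 CPM, and was not called, nor was Chil3 (132 and 19.1 against 30.7 and 67.8 CPM).

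**Figure D4:**
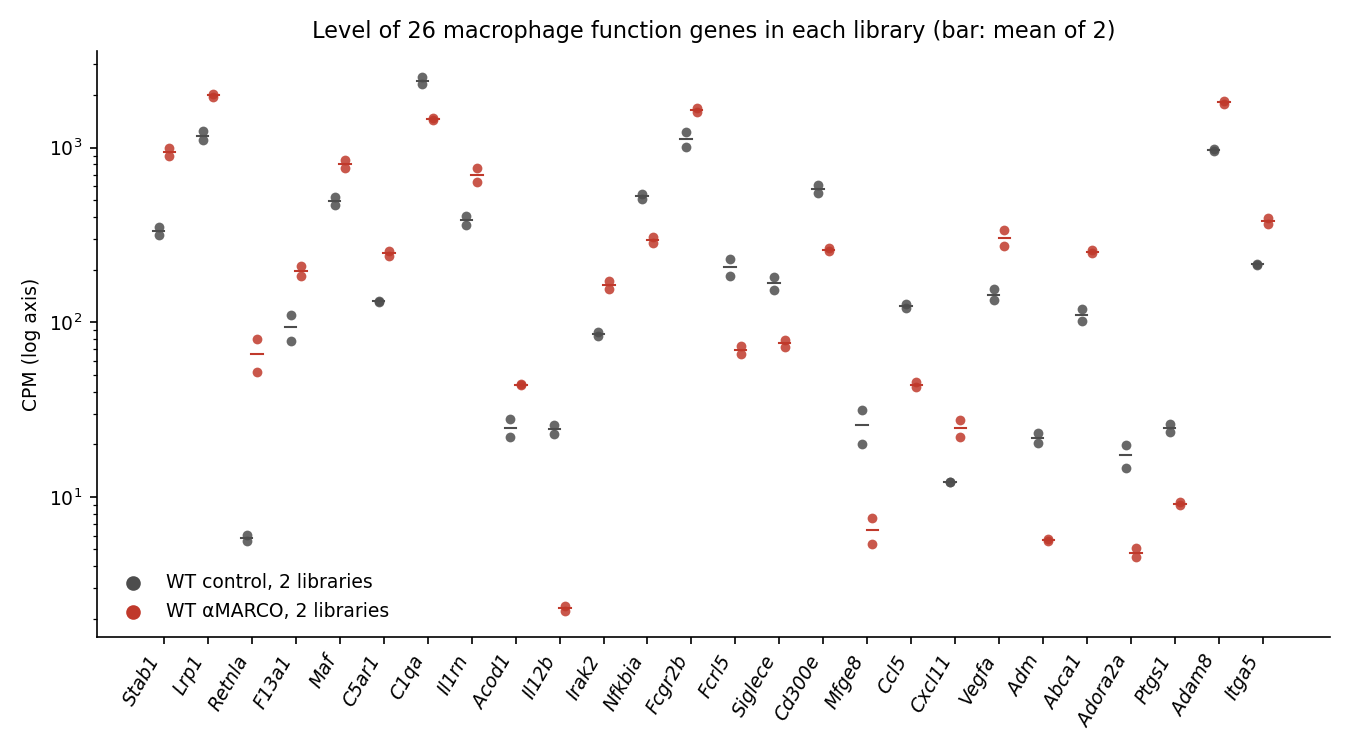
CPM (log axis) of 26 macrophage function genes in each library, with a bar at the mean of the 2 libraries of a group. Retnla stood at 6.06 and 5.62 CPM in the controls (gray) and 80.4 and 51.7 CPM after αMARCO (red), and Il12b at 25.9 and 23.03 CPM against 2.23 and 2.39 CPM.

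Of 20 tested complement genes, 3 were called higher and 5 lower, with a median of −0.23. C1qa, C1qb and C1qc, the 3 chains of C1q, were lower together, at log2 fold changes of −0.73, −0.59 and −0.71. C1qa stood at 2308 and 2521 against 1429 and 1482 CPM (log2 fold change −0.73 ± 0.10, adjusted p = 0.000781). C5ar1, the receptor for the anaphylatoxin C5a, was at 132 and 131 against 240.1 and 257 CPM (log2 fold change 0.92 ± 0.08, adjusted p = 0.000101), and was called under every alternative fit. The second C5a receptor, C5ar2, rose by 1.06. C3, the central component, rose by 0.55, a call lost without αMARCO replicate 1 or 2 or control replicate 1 (0.35 to 0.61). Cfb, complement factor B, fell by 1.08. C3ar1, the receptor for C3a, overlapped between groups at 633 and 702 against 683 and 726 CPM. With the length offset, C1qb lay just under the fold threshold at −0.49, while C1qa remained at −0.63.

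Of 10 tested Fc receptor genes, 1 was called higher and 3 were lower. Fcgr2b, the inhibitory receptor for IgG, stood at 1222 and 1009 against 1686 and 1594 CPM (log2 fold change 0.56 ± 0.11, adjusted p = 0.00469), and its fold change was 0.42 without control replicate 2. Fcgr4, an activating receptor, was at 489.8 and 630.1 against 347 and 338 CPM (log2 fold change −0.71 ± 0.12, adjusted p = 0.00206). The high-affinity receptor Fcgr1 was at 615 and 656 against 576 and 561 CPM and was not called. Fcrl5, an Fc receptor-like protein, was at 183 and 231 against 73.1 and 65.7 CPM (log2 fold change −1.58 ± 0.12, adjusted p = 9.18e-05), called lower under every alternative fit, and Fcgrt, the neonatal Fc receptor that recycles IgG, fell by 0.75.

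For the uptake of dying cells, 5 of 21 tested genes fell and 1 rose. Mfge8 and Pros1, which encode bridging proteins that tie phosphatidylserine to the phagocyte, fell under every alternative fit. Mfge8 was at 31.6 and 20.2 against 7.56 and 5.35 CPM and Pros1 at 32.3 and 45.9 against 16.5 and 15.9 CPM, with log2 fold changes of −2.01 and −1.27. Axl, a receptor tyrosine kinase for such bridges, fell by 0.52 and Rac1, the GTPase of engulfment, by 0.51. Both stood near the threshold, and Axl was not called without αMARCO replicate 1 (−0.49) or control replicate 2 (−0.47), nor Rac1 without αMARCO replicate 1 (−0.48) or control replicate 1 (−0.47). Mertk (0.44) and the ligand Gas6 (0.46) were higher in both αMARCO libraries than in both controls but under the fold threshold.

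Antigen presentation genes were called in 1 direction. Of 16 class II genes 5 fell and none rose, with a median of −0.36, and of 22 class I genes 5 fell and none rose, with a median of −0.33. The abundant class II chain H2-Ab1 stood at 3325 and 2709 against 2322 and 2325 CPM and the invariant chain Cd74 at 6183 and 5228 against 4405 and 4636 CPM, and neither was called. H2-Eb2 (21.1 and 10.1 against 0.6301 and 1.81 CPM) and H2-Ob (31.4 and 20.7 against 14.1 and 12.9 CPM) fell, at −3.62 and −0.95, and these genes of B cells and dendritic cells moved beside the dendritic cell markers above. The H2-Ob call was lost without αMARCO replicate 1 or 2 (adjusted p = 0.0529 and 0.0652), and that of H2-Eb2 with a replicate block (adjusted p = 0.059). Ctss, a protease that trims the invariant chain, was at 2780 and 2808 against 1731 and 1855 CPM (log2 fold change −0.64 ± 0.10, adjusted p = 0.00138). On the class I side, Tapbpl, a peptide editor, fell by 0.78, Erap1, a peptide-trimming protease, by 0.62 and Pdia3, a chaperone of peptide loading, by 0.59. Among costimulatory and checkpoint genes, 1 of 23 was higher (4.35%, beside 8.91% of all genes) and 3 lower (13%, beside 11.8%). Tnfsf9, the 4-1BB ligand, was at 89.3 and 94.04 against 136 and 145 CPM (log2 fold change 0.62 ± 0.08, adjusted p = 0.000523), and Clec2d, a ligand of an NK cell inhibitory receptor, fell by 0.61. Cd274, which encodes PD-L1, was at 321 and 407 against 441 and 414 CPM and Cd86 at 139 and 97.5 against 142 and 140.1 CPM, neither called.

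Myeloid C-type lectins had a median of −0.59, with 8 of 21 called lower and 1 higher. Clec4b1 was at 67.4 and 76.9 against 24.2 and 29.6 CPM (log2 fold change −1.42 ± 0.12, adjusted p = 9.44e-05). Clec12a, an inhibitory receptor for uric acid crystals, was at 218 and 272 against 121 and 116 CPM (log2 fold change −1.05 ± 0.11, adjusted p = 0.000237). Ly75, the endocytic receptor DEC-205 best known on dendritic cells, fell by 3.53, beside the dendritic cell markers above. Clec4e, the receptor Mincle for mycobacterial cord factor, rose by 0.71, although not without αMARCO replicate 2 (adjusted p = 0.0518) or control replicate 2 (adjusted p = 0.0569). Clec7a, the β-glucan receptor Dectin-1, overlapped between groups at 323 and 205 against 175 and 230.5 CPM.

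Among paired inhibitory and activating myeloid receptors, 8 of 33 fell and 2 rose. Siglece, an inhibitory receptor for sialic acids, was at 154 and 182 against 72.3 and 78.99 CPM (log2 fold change −1.15 ± 0.10, adjusted p = 0.000104), and Lilra5, an activating receptor, at 25.9 and 21.04 against 7.804 and 8.54 CPM, a log2 fold change of −1.52. Both were called under every alternative fit. Lilr4b, an inhibitory receptor of abundant expression, rose by 0.54 (2468 and 2843 against 3738 and 3993 CPM), a call that ended without αMARCO replicate 2 (0.49) or control replicate 1 (0.44). Cd300lb, an activating receptor for apoptotic cell lipids, rose by 0.57. Sirpa, which receives the CD47 signal, stood at 1669 and 1816 against 1910 and 1948 CPM and was not called. Paralogous receptor genes of these families share sequence, and reads may be split between them.

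Chemokine ligands were called higher in 3 of 26 and lower in 9 of 26, with a median of 0.02. Ccl5, a T cell attractant, was at 127 and 121 against 42.5 and 45.3 CPM (log2 fold change −1.50 ± 0.08, adjusted p = 1.93e-05), while Cxcl11, an interferon-induced ligand of CXCR3, was at 12.2 and 12.1 against 22.1 and 27.4 CPM (log2 fold change 1.03 ± 0.14, adjusted p = 0.000779). Both held under every alternative fit. The neutrophil attractants Cxcl1 and Cxcl3 fell by 0.90 and 0.91, and Ppbp, a platelet and monocyte chemokine, rose by 0.98. Ccl2, the monocyte attractant, was at 299 and 278 against 339 and 350.3 CPM, under the fold threshold.

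Chemokine and chemoattractant receptors had 4 of 18 higher and 8 lower. Ccr2, the monocyte receptor for CCL2, was at 325 and 227 against 445 and 444 CPM, and Cxcr4, the CXCL12 receptor, at 309 and 291 against 396 and 543 CPM. Their log2 fold changes were 0.69 and 0.65. The Ccr2 call was lost without αMARCO replicate 1 or 2 (adjusted p = 0.145 and 0.132) or control replicate 2 (0.44). The Cxcr4 call was lost without αMARCO replicate 2 (0.40), control replicate 1 (adjusted p = 0.0858) or control replicate 2 (adjusted p = 0.109). Cmklr1, the chemerin receptor, rose by 0.53, and by 0.44 without control replicate 2. The formyl peptide receptors Fpr1 and Fpr2 fell by 0.60 and 0.65, Fpr2 from 107 and 117 against 73.4 and 69.4 CPM. Without αMARCO replicate 2 or control replicate 2, Fpr1 was at −0.46 and −0.44, under the threshold. Ccr7, which guides mature dendritic cells to lymph nodes, was at 212 and 118 against 10.6 and 16.5 CPM (log2 fold change −3.60 ± 0.50, adjusted p = 0.0291), and its adjusted p was 0.221 and 0.178 without αMARCO replicate 1 or 2.

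Inflammatory activation genes showed no common direction, with 2 of 27 higher (7.41%, beside 8.91% of all genes) and 5 lower (18.5%, beside 11.8%). Their median was −0.01. Il12b, the p40 chain shared by IL-12 and IL-23, fell the most (ENSMUSG00000004296, chromosome 11, 44400063 to 44414033, plus strand). It was at 25.9 and 23.03 CPM in the controls and 2.23 and 2.39 CPM after αMARCO (log2 fold change −3.40 ± 0.17, adjusted p = 1.93e-05). Acod1, the enzyme that makes itaconate in activated macrophages, was at 22.1 and 27.8 against 44.4 and 43.5 CPM (log2 fold change 0.82 ± 0.12, adjusted p = 0.000933). Tnf (133 and 178 against 147 and 146 CPM), Nos2 (18.2 and 31.4 against 28.9 and 26.3 CPM) and Il1b (1487 and 1181 against 1543 and 1767 CPM) were not called, and the Tnf and Nos2 groups overlapped. Il6 was at 4.805 and 5.84 against 2.23 and 2.69 CPM, lower by 1.10, and not called without αMARCO replicate 1 (adjusted p = 0.0974). Mature dendritic cells, whose markers fell, also make IL-12.

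Inflammasome and IL-1 genes were called higher in 6 of 28 and lower in 3. Il1rn, the IL-1 receptor antagonist, was at 358 and 408 against 635 and 764 CPM (log2 fold change 0.87 ± 0.11, adjusted p = 0.000651), more than the spread within either group. Of the inflammasome sensors, Mefv, which encodes pyrin, Naip5, which senses flagellin, and Nlrp1b were called higher. Mefv was at 155 and 123 against 237 and 259 CPM (log2 fold change 0.83 ± 0.11, adjusted p = 0.000814) and Naip5 at 101 and 103 against 176 and 174 CPM (log2 fold change 0.78 ± 0.07, adjusted p = 0.00015). Nlrp1b rose by 0.88, a call lost without αMARCO replicate 1 or 2 (adjusted p = 0.167 and 0.0679). Naip5 has close paralogs, and its counts may share reads with them. The adaptor Pycard, by contrast, was at 118 and 136 against 85.99 and 83.7 CPM, lower by 0.58 and by 0.48 without control replicate 2. The protease Casp1 and the sensor Nlrp3 had log2 fold changes of −0.29 and 0.41, under the threshold.

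Type I interferon genes had 4 of 36 higher (11.1%) and 3 lower (8.33%), shares near those of all tested genes (8.91% and 11.8%), and a median of 0.07. Ifnar1, a chain of the interferon receptor, was at 230.4 and 208 against 386 and 396 CPM (log2 fold change 0.84 ± 0.09, adjusted p = 0.000186), and Stat2, a subunit of ISGF3, at 432 and 471 against 705 and 673 CPM (log2 fold change 0.61 ± 0.09, adjusted p = 0.000976). The antiviral 2-5A synthetase family members Oas2 and Oasl2 rose by 0.66 and 0.61. The tetherin gene Bst2, whose promoter with 2 overlapping ISRE matches is shown above, was at 379 and 415 against 263 and 260.4 CPM (log2 fold change −0.60 ± 0.08, adjusted p = 0.000813), and Ifi27l2a fell by 0.71. Widely used markers of the response did not pass, Isg15 at 338 and 324 against 284 and 296 CPM, Ifit1 at 120.1 and 104 against 107 and 132 CPM and Irf7 at 1249 and 1233 against 1040 and 1033 CPM. Interferon-gamma genes had none higher and 2 of 29 lower (6.9%, beside 11.8% of all genes). Cxcl9 was at 122 and 166 against 121 and 108 CPM and Irf1 at 311 and 403 against 345 and 327 CPM, neither called.

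In the endosomal TLR system, 1 of 26 genes was called higher (3.85%, beside 8.91% of all genes) and none lower (beside 11.8%). That gene was Irak2, a kinase of sustained TLR signaling, at 83.2 and 87.7 against 154 and 172 CPM (log2 fold change 0.93 ± 0.08, adjusted p = 0.000117), and the call held under every alternative fit. The receptors Tlr3 (31.6 and 32.8 against 31.9 and 28.4 CPM), Tlr7 (66.9 and 81.7 against 70.9 and 73.8 CPM) and Tlr9 (99.1 and 112 against 118 and 104 CPM) overlapped between groups, and Unc93b1, their chaperone, was at 842 and 959 against 748 and 706 CPM and not called. Among 13 surface TLR genes, Tlr5, the flagellin receptor, rose by 1.24 (adjusted p = 0.0805 without αMARCO replicate 1), and Sigirr, an inhibitor of TLR and IL-1 signaling, fell by 1.26. Tlr2 and Tlr4 had log2 fold changes of 0.26 and 0.29, not called. The surface TLR list had 7.69% called higher and 7.69% lower, near the 8.91% and 11.8% of all tested genes.

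NF-kB subunits and feedback genes had 3 of 23 higher (13%, beside 8.91% of all genes) and 3 lower (13%, beside 11.8%). The members whose promoters are printed above lay on both sides. Nfkbia, the inhibitor IκBα, was at 545 and 504 against 285 and 309 CPM (log2 fold change −0.82 ± 0.09, adjusted p = 0.000239). Nfkbid, a nuclear IκB protein, was at 173 and 161 against 249 and 264 CPM (log2 fold change 0.62 ± 0.08, adjusted p = 0.000653) and Tnip3, a partner of the deubiquitinase A20, at 23.4 and 23.2 against 39.5 and 44.5 CPM (log2 fold change 0.85 ± 0.10, adjusted p = 0.000432). Nfkbie, another inhibitor, rose by 0.67. Traf1 and Relb, both also expressed by mature dendritic cells, fell by 0.87 and 0.51, and Relb was under the fold threshold without αMARCO replicate 1 (−0.46) or control replicate 1 (−0.34). Nfkb1 (−0.38) and Tnfaip3 (−0.27), which encodes A20, were not called. Of the 9 NF-kB group genes whose promoters held the motif, 2 rose (Nfkbid, Tnip3), 1 fell (Nfkbia) and 6 were not called.

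For lipid handling, cholesterol efflux genes had 3 of 18 higher (16.7%, beside 8.91% of all genes) and 2 lower (11.1%, beside 11.8%). Abca1, the pump that exports cholesterol to apolipoprotein A-I, was at 102 and 119 CPM in the controls and 249 and 258 CPM after αMARCO (log2 fold change 1.20 ± 0.09, adjusted p = 6.54e-05). Mylip, which degrades the LDL receptor, rose by 0.80, but its adjusted p was 0.214 and 0.14 without control replicate 1 or 2. Soat1, which esterifies cholesterol, rose by 0.55 (0.48 without control replicate 1). Abcg1 (356 and 401 against 309 and 315 CPM) and Apoe (2456 and 2495 against 2183 and 2620 CPM) were not called, and Pltp, a lipid transfer protein, fell by 0.52 (0.41 without control replicate 2). Sterol synthesis genes had none of 25 higher and 6 lower, with a median of −0.37. Sqle, a rate-limiting epoxidase, was at 35.2 and 39.9 against 23.3 and 25.3 CPM (log2 fold change −0.63 ± 0.11, adjusted p = 0.00211).

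Of 22 lipid-associated macrophage genes, 4 fell and 1 rose. Fabp4, a fatty acid chaperone, was at 20.4 and 17.5 against 7.901 and 8.85 CPM (log2 fold change −1.17 ± 0.16, adjusted p = 0.000684) and Acp5, an acid phosphatase, at 352 and 419 against 221 and 243 CPM (log2 fold change −0.73 ± 0.10, adjusted p = 0.000825). Gpnmb (80.2 and 78.8 against 63.6 and 71.02 CPM), Spp1 (520 and 353 against 328 and 364 CPM) and Trem2 (3.34 and 2.98 against 2.96 and 4.46 CPM) were not called. Lysosomal genes had 7 of 41 lower (17.1%, beside 11.8% of all genes) and none higher, with a median of −0.25. Ctsk, a collagen-degrading cathepsin, was at 13.1 and 19.4 against 4.85 and 5.31 CPM, lower by 1.67 and called under every alternative fit. Cd63, a membrane protein of late endosomes, fell by 0.67, and Ctsd (457 and 609 against 452 and 442 CPM) was not called. Of 18 proton pump genes 2 fell, among them Atp6v0d2 (−1.19), a share of 11.1% near the 11.8% of all tested genes.

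Respiratory chain genes separated by genome. Of the 75 tested nuclear-encoded subunits of oxidative phosphorylation, 53 were called lower (70.7%, beside 11.8% of all genes) and none higher, with a median of −0.60. All 75 had a negative fold change. Of the 13 subunits encoded in mitochondrial DNA, 11 were called higher (84.6%, beside 8.91%) and none lower, with a median of 1.11. Ndufa4, a small subunit of the chain, was at 67.2 and 74.9 against 32.7 and 35.1 CPM (log2 fold change −1.07 ± 0.09, adjusted p = 0.000109) and Uqcr10, of complex III, at 66.5 and 71.6 against 31.2 and 33.5 CPM (log2 fold change −1.09 ± 0.09, adjusted p = 8.72e-05). On the mitochondrial genome, mt-Co1, the catalytic subunit of complex IV (positions 5328 to 6872), was at 6851 and 6754 CPM in the controls and 15960 and 18870 CPM after αMARCO (log2 fold change 1.36 ± 0.13, adjusted p = 0.000165). Among the complex I subunits of that genome, mt-Nd1 and mt-Nd6 rose by 1.22 and 1.31.

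Cytosolic ribosomal proteins were called lower in 44 of 78 and higher in none, with a median of −0.53, and 77 of the 78 were negative. Rps29 was at 585 and 622 against 219 and 256 CPM (log2 fold change −1.35 ± 0.10, adjusted p = 5.78e-05) and Rps28 at 288 and 252 against 101 and 119 CPM (log2 fold change −1.30 ± 0.10, adjusted p = 7.90e-05), both called under every alternative fit. These transcripts are short, with a median annotated length of 1754 bases for ribosomal and 1718 for nuclear respiratory genes, and 784 for the mitochondrial genes, which rose. With the length offset 41 nuclear respiratory, 10 mitochondrial and 35 ribosomal genes were called in the same directions. With all 8 libraries in 1 model, no nuclear respiratory, 4 mitochondrial and 2 ribosomal genes were called. Mitochondrial genes took 1.07% and 1.03% of all counts in controls and 2.37% and 2.74% after αMARCO, whose part in these results was not tested. Ribosomal protein genes have many processed pseudogenes that may take some of their reads.

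Of 20 glycolysis genes none was called in either direction, and their median was −0.01. Ldha was at 908 and 887 against 731 and 772 CPM and the glucose transporter Slc2a1 at 288 and 260.5 against 286 and 294 CPM. Hypoxia genes had 1 of 19 higher and 4 lower. Vegfa, the angiogenic growth factor, was at 134 and 154 against 274 and 338 CPM (log2 fold change 1.08 ± 0.12, adjusted p = 0.000355). In the other direction, Adm, the vasodilator adrenomedullin, was at 20.4 and 23.4 against 5.72 and 5.62 CPM (log2 fold change −1.95 ± 0.15, adjusted p = 7.22e-05) and was called under every alternative fit, and Slc2a3, a neuronal-type glucose transporter, fell by 1.30. Hif1a (145 and 119 against 158 and 162 CPM) was not called.

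**Figure D5:**
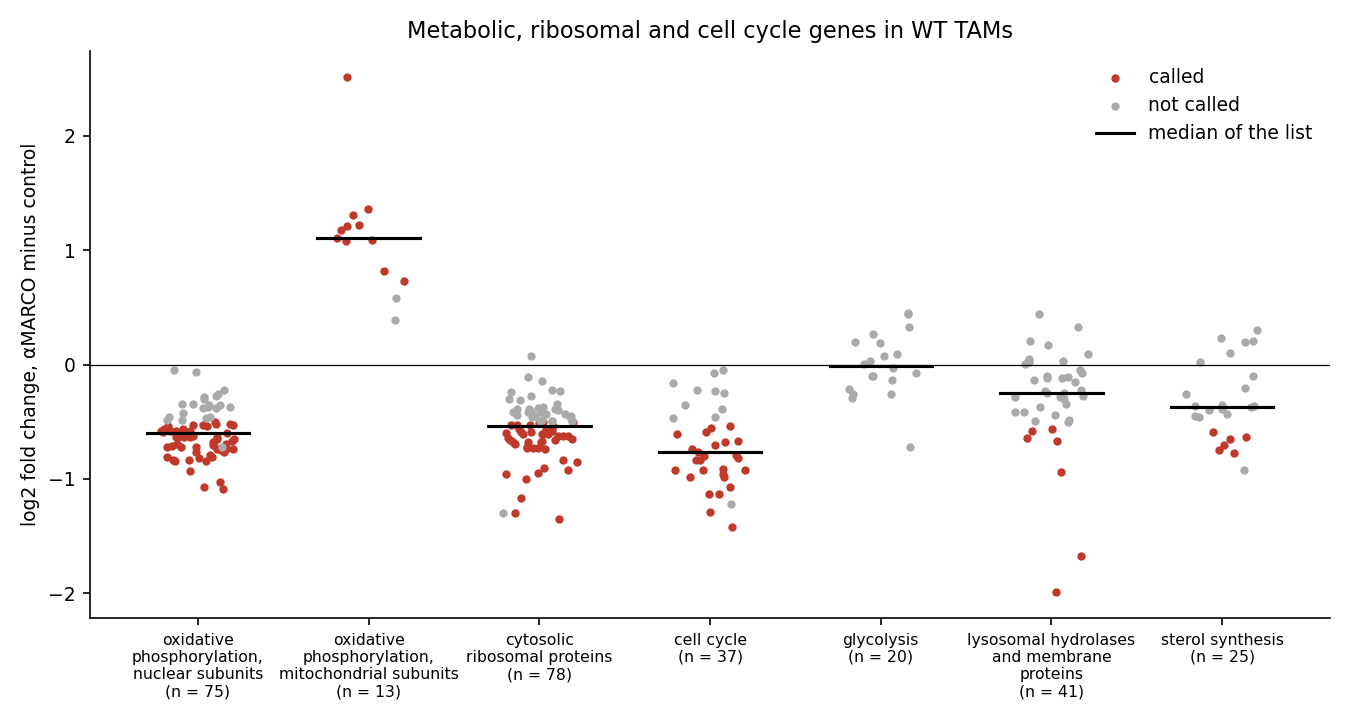
Log2 fold change (αMARCO minus control) of each tested gene of 7 metabolic, ribosomal, cell cycle, lysosomal and sterol lists, called genes in red, others in gray, with a bar at the median. The mitochondrial subunits lie above 0 (median 1.11) and the nuclear-encoded genes of oxidative phosphorylation below 0 (median −0.60), while glycolysis genes center on −0.01.

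Cell cycle genes fell, 26 of 37 with none higher, and a median of −0.76, the lowest of the 43 function lists. Cdc20, which activates the anaphase-promoting complex, was at 25.96 and 28.5 against 11.6 and 10.7 CPM (log2 fold change −1.29 ± 0.13, adjusted p = 0.000168), and was called under every alternative fit. Hmmr, a spindle protein, was at 15.8 and 18.8 against 6.64 and 6.27 CPM (log2 fold change −1.42 ± 0.17, adjusted p = 0.000377), and the mitotic kinase Cdk1 fell by 0.79. Top2a, needed to separate chromosomes, was at 110 and 127 against 78.7 and 76.5 CPM (log2 fold change −0.61 ± 0.09, adjusted p = 0.00092). Mki67, the common marker of cycling cells, overlapped between groups at 146 and 189.7 against 154 and 146 CPM. The length offset gave 24 calls in place of 26 and the model of all 8 libraries 5, and the part of the T cells, whose markers fell, was not tested.

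Immediate early and AP-1 genes had 6 of 27 higher and none lower, with a median of 0.15. Atf3, a stress-induced repressor, was at 743 and 798 against 989.5 and 1277 CPM (log2 fold change 0.56 ± 0.12, adjusted p = 0.00819), and Nr4a1, an orphan nuclear receptor, at 578 and 473 against 748 and 859.9 CPM (log2 fold change 0.61 ± 0.12, adjusted p = 0.00378). Fos (2017 and 2059 against 2228 and 2691 CPM) and Jun (1428 and 1371 against 1208 and 1556 CPM) were not called. Klf2, Fosb and Btg2 rose by 0.68, 0.63 and 0.57. The αMARCO replicate 2 library was the higher of its pair for Atf3, Klf2, Fosb, Nr4a1 and Btg2. Without that library the fold changes were 0.36 for Atf3, 0.40 for Klf2, 0.37 for Fosb and 0.47 for Btg2, and none was called. Without control replicate 2, Nr4a1 and Btg2 were at 0.47 and 0.42 and Klf2 at an adjusted p of 0.189, while without control replicate 1 Klf2 and Fosb were at adjusted p of 0.294 and 0.0939.

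Unfolded protein response genes had 6 of 23 lower and 1 higher. Hspa5, the chaperone BiP, was at 1297 and 1364 against 839.8 and 996 CPM (log2 fold change −0.54 ± 0.11, adjusted p = 0.0044), although it missed the threshold without αMARCO replicate 1 (−0.41, adjusted p = 0.0527). Ppp1r15a, the phosphatase subunit GADD34 that restores translation, was at 414 and 446 against 210.3 and 245 CPM (log2 fold change −0.92 ± 0.10, adjusted p = 0.000214) and held under every alternative fit. Ern1, the sensor IRE1α, rose by 0.67, while its target Xbp1 (237 and 197 against 200.3 and 209.9 CPM) and Ddit3 (38.3 and 40.8 against 39.8 and 42.4 CPM) overlapped. NRF2 antioxidant genes had 3 of 21 lower, a share of 14.3% near the 11.8% of all tested genes. They were led by Taldo1, of the pentose phosphate pathway (343 and 328 against 206 and 232 CPM, log2 fold change −0.62 ± 0.09, adjusted p = 0.000881). Hmox1, the heme-degrading enzyme, was at 809.9 and 977 against 1105 and 1204 CPM, under the fold threshold. For iron, Aco1 fell by 0.54 and the iron transporter Slc11a2 rose by 0.52, the latter not without αMARCO replicate 1 or 2 (adjusted p = 0.153 and 0.113) or control replicate 1 (0.30). The oxidase subunit Cybb was at 439.5 and 522 against 403 and 451 CPM and not called.

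Among genes of adenosine, purinergic and lipid mediator signaling, 6 of 25 fell and none rose. Adora2a, the adenosine receptor through which macrophages and T cells are restrained, was at 19.9 and 14.7 against 5.09 and 4.504 CPM (log2 fold change −1.85 ± 0.20, adjusted p = 0.000237). Ptgs1, which encodes cyclooxygenase-1, was at 26.1 and 23.4 against 9.36 and 8.97 CPM (log2 fold change −1.43 ± 0.13, adjusted p = 0.00014) and the prostaglandin E synthase Ptges at 24.9 and 26.2 against 13.2 and 12.1 CPM (log2 fold change −1.02 ± 0.12, adjusted p = 0.000444). P2ry14, a receptor for UDP-glucose, was at 67.7 and 60.4 against 29.4 and 26.4 CPM (log2 fold change −1.20 ± 0.10, adjusted p = 8.89e-05). Of these, Adora2a, Ptgs1 and P2ry14 held under every alternative fit. Entpd1, which encodes CD39, was at 243 and 224 against 231 and 239.8 CPM and not called.

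Matrix proteases and inhibitors had 2 of 26 higher and 7 lower. Adam8, a membrane protease of myeloid cells, was at 962 and 984 against 1855 and 1769 CPM (log2 fold change 0.90 ± 0.09, adjusted p = 0.000218). Mmp13, a collagenase, rose by 0.51 and by 0.40 without αMARCO replicate 2. Sparc, a matricellular protein, was at 29.2 and 25.6 against 10.9 and 11.6 CPM (log2 fold change −1.28 ± 0.13, adjusted p = 0.000183), and Timp1 fell by 1.20, the latter not without either αMARCO library (adjusted p = 0.0755 and 0.136). Mmp12 (459 and 395 against 418 and 525 CPM) and Tgfb1 (467 and 425 against 389.5 and 449 CPM) overlapped between groups. Sparc is abundant in fibroblasts, whose markers fell. Csf1, the macrophage growth factor, was at 24.3 and 21.3 against 10.9 and 10.6 CPM (log2 fold change −1.08 ± 0.14, adjusted p = 0.000518), while the transcription factor Spi1, which encodes PU.1, was at 748 and 787 against 724 and 706 CPM and not called. Bhlhe40, a transcription factor of activated macrophages, fell by 0.87.

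Adhesion genes had 2 of 26 higher (7.69%, beside 8.91% of all genes) and 7 lower (26.9%, beside 11.8%). Itga5, the fibronectin receptor chain, was at 215 and 213 against 365 and 394 CPM (log2 fold change 0.83 ± 0.08, adjusted p = 0.000169), and Pecam1, the adhesion molecule CD31, at 201 and 198 against 107 and 106 CPM (log2 fold change −0.91 ± 0.07, adjusted p = 7.90e-05), both called under every alternative fit. Selplg, the P-selectin ligand, was at 420.2 and 380 against 209 and 220.2 CPM (log2 fold change −0.90 ± 0.09, adjusted p = 0.000153) and Vcam1 fell by 0.96.

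Nonclassical monocyte genes had 8 of 17 lower and 1 higher, with a median of −0.51. Cd300e was at 553 and 612 against 254 and 267 CPM (log2 fold change −1.16 ± 0.09, adjusted p = 6.78e-05), Spn, which encodes CD43, at 132 and 164 against 53.3 and 61.1 CPM (log2 fold change −1.37 ± 0.12, adjusted p = 0.000153), and Adgre4 at 62.4 and 48.5 against 19.1 and 19.6 CPM (log2 fold change −1.52 ± 0.13, adjusted p = 0.000107). All 3 were called under every alternative fit. Spn is also a T cell gene, and its part from T cells was not tested. Cx3cr1 (14.7 and 16.5 against 11.2 and 13.8 CPM) was not called. Classical monocyte genes had 3 of 17 higher (17.6%, beside 8.91% of all genes) and 2 lower (11.8%, the same as all genes). Their median was 0.15, and Ly6c2 was at 142 and 128 against 145 and 153 CPM, not called. The median of the classical list ranged from −0.06 to 0.71 over the alternatives.

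Among all called genes with a mean of at least 10 CPM in the higher group, the largest increases after Retnla were in Pik3r2 and A130071D04Rik. Pik3r2, a regulatory subunit of PI3 kinase, was at 1.99 and 1.598 against 13.6 and 8.85 CPM (log2 fold change 2.64 ± 0.28, adjusted p = 0.000229). A130071D04Rik rose by 1.97. Neat1, the noncoding scaffold of nuclear paraspeckles (ENSMUSG00000092274, chromosome 19, 5824708 to 5845478, minus strand), was at 642 and 635 CPM in the controls and 2060 and 1893 CPM after αMARCO (log2 fold change 1.63 ± 0.10, adjusted p = 2.23e-05). Lyz1, a lysozyme gene, was at 7.94 and 8.59 against 27.1 and 23.8 CPM (log2 fold change 1.62 ± 0.14, adjusted p = 0.000106), and may share reads with its paralog Lyz2. Under the same condition, the largest decreases were in Cd8a (−4.79), Scin (−4.67), Ctla4 and Spint2 (−3.73 each), Nkg7 and H2-Eb2 (−3.62 each), and Ccr7 and Adam23 (−3.60 each). Most of these are genes of T cells, NK cells or dendritic cells.

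Lastly, the αMARCO effect was compared between genotypes as a difference of differences over all 8 libraries. No gene was called among 16620 (0%), with 2549 at an unadjusted p under 0.05, and DESeq2 called 211. The treatment comparison inside the Unc93b1 3d/3d genotype gave 0 calls by edgeR over 15428 genes, 744 of them at an unadjusted p under 0.05. Unc93b1 3d/3d αMARCO replicate 2 stood apart from its partner for Stab1, Abca1, Lrp1 and the respiratory and ribosomal lists below. Stab1, which rose in WT, was at 1357 and 1415 CPM in Unc93b1 3d/3d controls and 1076 and 589 CPM after αMARCO, a difference between genotypes of 2.23 on the log2 scale (WT minus Unc93b1 3d/3d, adjusted p = 0.281). Abca1 was at 433 and 421 CPM against 235 and 130.2 CPM in those mice (difference 2.42, adjusted p = 0.281), and Lrp1 at 2034 and 2092 CPM against 1559 and 757 CPM (difference 1.59, adjusted p = 0.318). For all 3, Unc93b1 3d/3d controls lay above the WT controls. Retnla, at 17.5 and 49.9 CPM against 15.6 and 24.4 CPM, differed by 4.25 (adjusted p = 0.281). The cell cycle list had a median of −0.60 in Unc93b1 3d/3d and −0.76 in WT, the nuclear respiratory list 0.31 and −0.60, and the ribosomal list 0.57 and −0.53. In Unc93b1 3d/3d the summed ribosomal level was 29810 and 31490 CPM in controls against 29030 and 58730 CPM after αMARCO, and the nuclear respiratory level 4613 and 5072 against 4034 and 7638 CPM. For both lists αMARCO replicate 1 lay below both controls and replicate 2 above them, so no direction is read.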

How the data were processed

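TAMs were sorted from EO771 tumors and polyadenylated RNA was sequenced on an Illumina NovaSeq instrument. Per the labels and the study's methods, the authors trimmed reads with fastp, aligned them to GRCm38 with HISAT2 2.0.5 and counted reads per gene with featureCounts 1.5.0. The deposited counts are whole read counts per gene, not normalized, and the tables also held FPKM values made by the authors, which enter no test. The authors' own comparison columns (fold changes, p-values from DESeq2 1.40.2) were not used. The deposited tables shared 95230 count values, of which 0 differed.

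Counts of the 4 WT libraries were fitted with edgeR 4.0.16 (R 4.3.3, TMM scaling, filterByExpr, robust quasi-likelihood fit) with treatment as the only term. The adjusted p is Benjamini-Hochberg over all 15630 tested genes, and the thresholds, 0.05 and 0.5 on the log2 scale, are those of the study. CPM are counts over the library total multiplied by its TMM factor, with factors from the 4 WT libraries for WT values. The Unc93b1 3d/3d values, and the list sums compared between genotypes, use factors from all 8 libraries. Sums of one list can therefore differ slightly between sections. The genotype difference used all 8 libraries. Nothing says that libraries came from separate experiments, so p-values measure the spread between these samples, and with 2 libraries a group no permutation test could pass the threshold. The fits were tested on simulated counts.

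The 57 gene lists (43 of functions, 14 of cell types), the members and the tests were chosen with earlier results of these data known. Named genes were, for each list, a few key members and up to 4 called genes a direction with a mean of at least 10 CPM in the higher group. The 12 called genes with the largest changes a direction over all genes, at the same minimum, were added. Genes named as called also had to have groups that did not overlap, which held for every called gene. Lists are described by counts and medians beside those of all genes. Promoters came from RefSeq (GRCm38.p6), which matched 27025 genes. Alternatives were DESeq2 1.42.0, its size factors, no TMM, other count filters, a replicate block, leaving out each library, all 8 libraries in 1 model, other fold thresholds and, added after seeing the data, an offset for gene length (mgcv 1.9.3). The replicate numbers did not pair the libraries, since same-numbered deviations correlated at −0.0186. Some genes are not reported here.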

Additional observations from a re-analysis of the deposited data

Results flagged for a closer look

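By summed CPM, 11 of the 57 lists, 6 of functions and 5 of cell types, lay on opposite sides in WT and Unc93b1 3d/3d. In each, both αMARCO libraries lay on one side of both controls in WT and on the other side in Unc93b1 3d/3d. Groups of 2 libraries often do not overlap, and in WT they did not for 11084 of 15630 tested genes. The share of all genes on opposite sides in the 2 genotypes was not counted. The log2 ratio of the group means was 0.43 in WT and −0.50 in Unc93b1 3d/3d for scavenger receptors. It was 0.45 and −0.60 for resident-like macrophage genes and 0.11 and −0.23 for efferocytosis and bridging genes. Matrix proteases and inhibitors stood at 0.51 and −0.21, MHC class II presentation at −0.32 and 0.80, and sterol synthesis at −0.24 and 0.16. A sum follows the most abundant members of its list. The WT median of members was −0.05 for efferocytosis and bridging and −0.10 for matrix proteases, opposite in sign to their sums. It was 0.11 for scavenger receptors, 0.20 for resident-like, −0.36 for class II and −0.37 for sterol genes. Stab1 belongs to the scavenger, resident-like and efferocytosis lists, so these are not independent. Cell type lists were at −0.78 and 0.69 for B cell, −0.25 and 0.28 for type 2 and general dendritic cell, −1.29 and 0.34 for mature dendritic cell and −1.27 and 0.37 for epithelial and tumor cell markers. Erythroid markers were at 2.0 and −2.28, on summed levels of 0.211 to 5.59 CPM. Other lists lay without overlap on the same side in both genotypes. Lower in both were T cell, type 1 dendritic cell and cell cycle genes. Higher in both were mitochondrial subunits, immediate early, inflammasome, chemokine receptor, surface TLR, and growth factor receptor and transcription factor genes. Chemokine receptors were higher by sum only, with 4 of 18 called higher and 8 lower in WT and a WT median of −0.42. Median log2 fold changes in WT and Unc93b1 3d/3d were 1.11 and 0.61 for mitochondrial subunits and −2.97 and −1.55 for T cell markers.

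The Unc93b1 3d/3d value for MHC class II was 0.28 without αMARCO replicate 2, whose sum was 39610 CPM beside 21240 CPM in its partner. Without that library the values were −0.36 for scavenger receptors, −0.13 for efferocytosis and bridging, 0.10 for sterol synthesis, 0.41 for B cell and −1.95 for erythroid markers. The difference between genotypes was not tested on these sums, and gene by gene no difference was called by edgeR.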

How the results depend on the processing

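The count of called genes, 3236, was 2671 with DESeq2, 3086 with a replicate block and 2908 with the length offset, chosen after seeing the data. It ranged from 1940 to 3931 when libraries were left out one at a time, fell to 164 with all 8 libraries in 1 model and to 1366 when a log2 difference of 1 was required, and was 5487 with no fold threshold. Calls over the 43 function lists, 336 in the main comparison and 336 with the replicate block, were 39, 93 and 532 under these last 3 settings. With all 8 libraries, calls were 0 for nuclear respiratory genes lower (53), 4 for mitochondrial subunits higher (11), 2 for ribosomal proteins lower (44) and 5 for cell cycle genes lower (26). At a fold threshold of 1 they were 3, 9, 3 and 5 in turn, and with no fold threshold ribosomal calls were 72. Leaving out single libraries gave 42 to 54, 9 to 11, 37 to 55 and 24 to 28. The number of genes that differed between genotypes, 0, was 211 with DESeq2 and 152 with no filter beyond 1 count. The cause of these shifts was not tested beyond each setting's own construction.

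Of 209 called named genes, 135 were called in every fit other than that of all 8 libraries, and none of those called changed sign. Arg1, not called at −1.30 on the log2 scale, was at 0.58 without control replicate 1 (adjusted p = 0.00207) and −2.09 without control replicate 2. No direction is read for 29 further uncalled genes whose sign varied. The replicate block is given only as an alternative, since the numbers share nothing known. Precision is limited by 2 libraries a group and by a control whose treatment is not settled.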
